A study of Mus musculus with 6 samples.

Results

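The genes described here are the 3 Scube genes (*Scube1*, *Scube2* and *Scube3*) and 6 genes of the hedgehog pathway (*Gli1*, *Gli2*, *Gli3*, *Ptch1*, *Hhip* and *Smo*), which are 9 of the 53819 genes in the deposited count table. They were selected by symbol, and *Scube2* was picked for its rise in the DTR libraries, so its difference between the groups is given as a description without a test. RNA was sequenced from flexor digitorum longus (FDL) tendons of 3 DTR and 3 WT mice, with 1 tendon per library. DTR mice (Scx-Cre+; DTR F/+) carry the diphtheria toxin receptor behind a STOP cassette that is removed in Scx-lineage cells, and WT mice (Scx-Cre-; DTR F/+) are littermates with the same receptor allele but without Cre. Both groups held male and female mice, aged 10 to 12 weeks at surgery. In all of them the FDL tendon of the hind paw was cut and repaired, and all received 5 daily local injections of diphtheria toxin (DT) from day 14 to day 18, with harvest at day 28 (D28) after surgery. The Cre is driven by *Scx* from development on, so the receptor marks every cell with past *Scx* expression and not only the cells that expressed *Scx* at the time of the toxin.

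Hedgehog ligands are secreted proteins that carry lipid anchors, and they leave the producing cell with the help of the membrane protein Dispatched and of secreted SCUBE proteins, of which SCUBE2 is the best studied. On the receiving cell the ligand binds Patched (*Ptch1*), which otherwise holds the membrane protein Smoothened (*Smo*) inactive, and active *Smo* acts at the primary cilium on the transcription factors *Gli2* and *Gli3*. *Gli1*, *Ptch1* and *Hhip* are transcribed in response to the signal in many tissues, so their transcripts are commonly used as a readout of it, and *Ptch1* and *Hhip* both bind ligand and limit its reach. In tendon, the pathway is best known from the fibrocartilage of the attachment to bone, where *Gli1* marks a population of cells.

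The libraries held between 42744138 and 48854310 counts on genes, and 17496 genes, all 9 members included, passed the filter on low counts. Values are normalized counts, that is counts scaled by TMM factors to the mean library size, and mean ± SD is over n = 3 libraries. Values per library are listed in the order of replicates 1, 2 and 3. Differences between groups are log2 fold changes of DTR over WT, written as the estimate ± its standard error (SE). The tendon markers *Scx* and *Tnmd* were abundant in every library, with at least 2202 and 50510 normalized counts. A list of 8 tendon markers held 1.20% to 1.46% of the counts in WT and 1.57% to 1.69% in DTR libraries. Most of that share was on *Thbs4* and *Fmod*. *Thbs4* was fitted higher in DTR (0.65 ± 0.16 log2 units, SE) without overlap of the groups, and *Fmod* lower (-0.17 ± 0.17) with overlap. Of the 8 tendon markers, 7 were fitted higher and 1 lower. A list of 12 skeletal muscle markers held 1.47% to 2.07% in WT but 0.243%, 1.78% and 0.463% in the DTR libraries. A list of 10 keratinocyte markers held 0.312% and 0.191% of the counts in WT replicates 1 and 2, 0.0289% in DTR replicate 3 and no more than 0.00249% in the remaining ones. Of these 10 markers, 5 (*Krt5*, *Krt14*, *Krt1*, *Krt15* and *Dsg3*) were at 0 in at least 1 library. A list of 10 cartilage markers held 0.0459% to 0.0572% in WT and 0.0318% to 0.0411% in DTR libraries. Most of that share was on *Chad* and *Acan*. *Chad* was fitted lower in DTR (-1.42 ± 0.71 log2 units, SE) without overlap of the groups, and *Acan* higher (0.21 ± 0.33) with overlap. Of the 8 tested cartilage markers, 6 were fitted lower and 2 higher. *Xist* was counted in WT replicate 2 and DTR replicates 2 and 3 (49303 counts or more) and was at 3 or 4 counts in the others, so both sexes were present in each group. In bulk tissue, fewer cells of a type and less RNA per cell cannot be told apart. The quasi-likelihood test of edgeR called 0% of the 17496 genes at an adjusted p under 0.05, and 11.0% had an unadjusted p under 0.05.

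*Scube2*, which encodes a secreted glycoprotein with EGF-like repeats and a CUB domain, was the member with the largest difference. It had 415, 501 and 389.8 normalized counts in the WT and 1144, 864 and 972 in the DTR libraries. Every DTR library was above every WT library, and the lowest DTR library was 1.72 times the highest WT library. The WT mean was 435 ± 58.3 and the DTR mean 993 ± 141 (SD, n = 3 each), a ratio of 2.28 and a log2 fold change of 1.19 ± 0.15 (SE). Among all tested genes, 8.96% had every DTR library above every WT library, and since *Scube2* was picked for this difference nothing is read from that share.

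**Figure D1:**
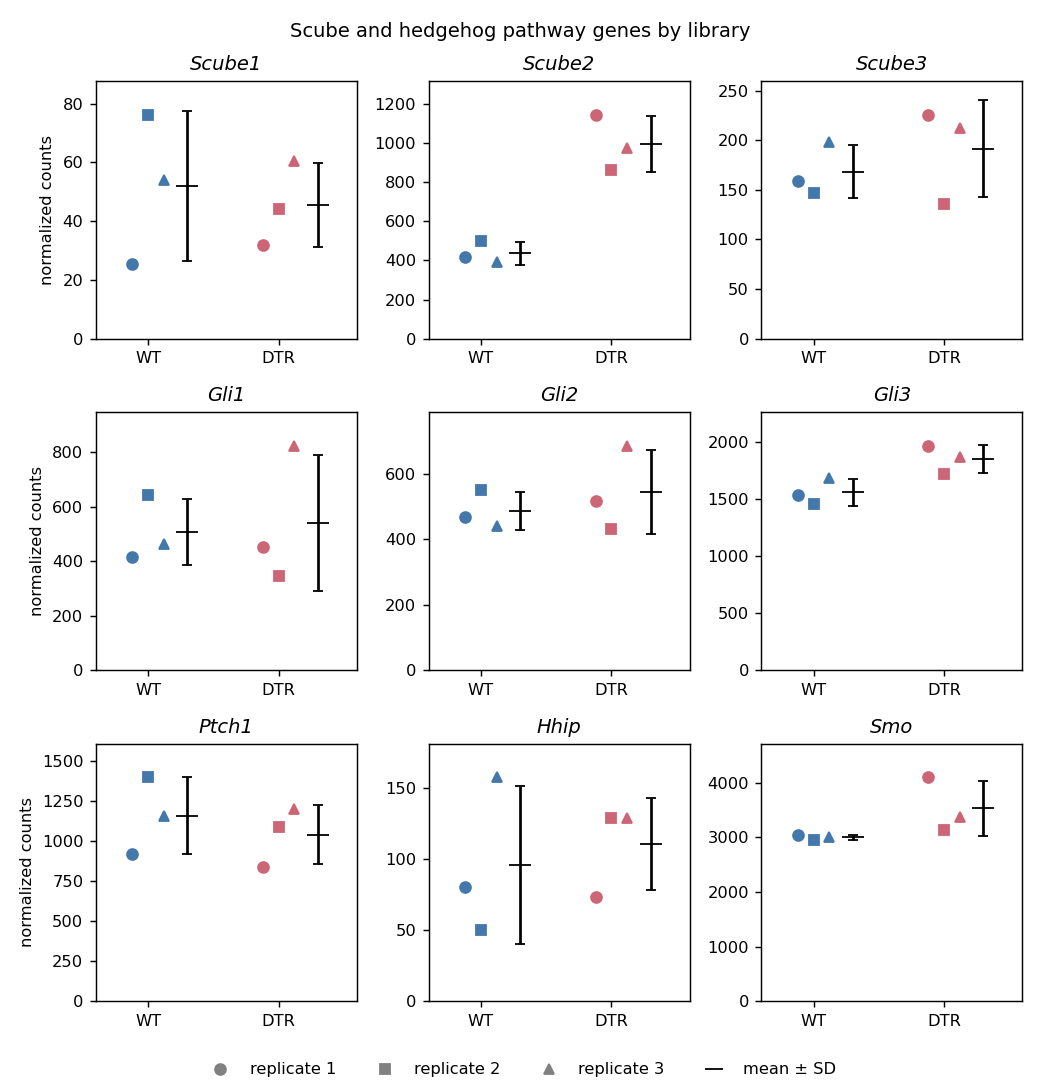
Normalized counts of the 9 genes in each library (points, with a marker per replicate), with mean ± SD beside each group of 3 and a y axis from 0 in each panel. The *Scube2* points of the DTR group sit at 864 to 1144, above the WT points at 389.8 to 501, while the points of *Scube1*, *Scube3*, *Gli1*, *Gli2*, *Ptch1* and *Hhip* overlap between groups.

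Since the groups did not overlap, any split of the libraries leaves *Scube2* higher in DTR, and the values on each side of the split by *Xist* are given as a description. In the libraries with *Xist*, 1 WT library had 501 normalized counts and 2 DTR libraries had a mean of 918, a ratio of 1.83. In those without, 2 WT libraries had a mean of 402 and 1 DTR library had 1144, a ratio of 2.84. The share of tendon markers was likewise above that of every WT library in the 3 DTR libraries. That share is mostly *Thbs4* and *Fmod*, of which only *Thbs4* separated the groups. Of the 8 tendon markers, 4 had every DTR library above every WT library, beside 8.96% of all tested genes. In bulk tissue the share cannot tell more tendon cells from more RNA of these genes per cell. The part of tendon tissue in the *Scube2* values was not tested. Skeletal muscle markers also differed between libraries, and DTR replicate 1, with the lowest muscle share (0.243%), had the highest *Scube2* level. DTR replicate 2, with a muscle share of 1.78%, within the WT range of 1.47% to 2.07%, had 864 normalized counts of *Scube2*, above every WT library. With the muscle share as a covariate the log2 fold change was 0.98, the lowest of the 16 alternatives, and the part of muscle RNA in the *Scube2* values was not tested further. Without that covariate and with each library left out in turn, the log2 fold change was 1.07 to 1.30.

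The other 2 Scube genes overlapped between the groups. *Scube1*, known from platelets and vascular endothelium, had 25.4, 76.3 and 54.0 normalized counts in the WT and 31.9, 44.0 and 60.6 in the DTR libraries. WT replicate 1 was the lowest library and WT replicate 2 the highest. The difference was -0.19 ± 0.45 log2 units (SE; adjusted p = 0.904, edgeR), and it was 0.20 without WT replicate 2 and 0.0039 without DTR replicate 1. *Scube3*, which has roles in bone and craniofacial development, had 159, 147 and 199 normalized counts in the WT and 226, 136 and 213 in the DTR libraries. DTR replicate 2 was below all WT libraries and DTR replicates 1 and 3 were above them, and the difference was 0.19 ± 0.25 log2 units (SE; adjusted p = 0.813, edgeR). With the muscle share as a covariate *Scube3* was at -0.29.

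The promoter sequences of the 3 Scube genes are shown because *Scube2* separated the groups and its paralogs overlapped. Promoters here are the RefSeq (GRCm38.p6) windows from 250 bases before to 50 after the start, and 8 of the 9 members had such a window. Capitals mark the GC box GGGCGG or its reverse complement CCGCCC, and each window is written 5′ to 3′ on the strand of its gene.
Scube1 (chr15:83724990-83725289, minus strand): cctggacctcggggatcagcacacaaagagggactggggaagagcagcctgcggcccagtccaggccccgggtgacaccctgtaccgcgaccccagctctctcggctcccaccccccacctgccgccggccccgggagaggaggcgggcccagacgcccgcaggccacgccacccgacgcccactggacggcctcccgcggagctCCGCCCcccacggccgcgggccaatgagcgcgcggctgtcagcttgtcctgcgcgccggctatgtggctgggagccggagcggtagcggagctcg
Scube2 (chr7:109865630-109865929, minus strand): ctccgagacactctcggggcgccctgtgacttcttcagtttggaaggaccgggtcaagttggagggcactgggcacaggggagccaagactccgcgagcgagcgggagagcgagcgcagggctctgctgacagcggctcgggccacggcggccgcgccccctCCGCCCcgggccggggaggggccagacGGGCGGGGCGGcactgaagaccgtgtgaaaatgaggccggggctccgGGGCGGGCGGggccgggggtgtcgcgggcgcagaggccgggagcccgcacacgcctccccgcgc
Scube3 (chr17:28142059-28142358, plus strand): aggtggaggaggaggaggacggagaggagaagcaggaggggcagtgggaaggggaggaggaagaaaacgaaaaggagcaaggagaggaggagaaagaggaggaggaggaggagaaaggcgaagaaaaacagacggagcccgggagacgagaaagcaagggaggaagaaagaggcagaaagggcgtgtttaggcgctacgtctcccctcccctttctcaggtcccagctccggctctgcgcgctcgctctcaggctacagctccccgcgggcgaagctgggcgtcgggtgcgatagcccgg
The *Scube2* window held 5 GC boxes, in part overlapping, the *Scube1* window 1 and the *Scube3* window 0. Of all 32851 windows, 35.7% held at least 1, as did 6 of the 8 member windows. The windows of *Scube1* and *Scube2* had 75.0% and 75.3% G or C and 32 and 36 CpG dinucleotides. The *Scube3* window, which opens with a run rich in A and G, had 62.0% and 20, where the medians over all windows were 52.7% and 7. The letters GACCACCCA, a GLI binding motif, were sought on both strands, and 0 of the 8 member windows and 0.253% of all windows held them. The shorter ACCACCC, which lies within that motif, was in the *Gli2* window and in 4.61% of all windows. Such letters are a description of the window and were not measured as bound sites, and the absence of letters from a window says nothing of sites outside it.

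Of the 3 ligands, *Shh* and *Ihh* were near the limit of detection. *Shh* had 1, 4 and 11 raw counts in the WT and 0, 1 and 0 in the DTR libraries, that is 16 counts against 1 in libraries of 42744138 counts or more, and a count of 0 allows up to 3 at this depth. *Ihh*, the ligand of growth plate and attachment cartilage, had 3, 10 and 3 raw counts in the WT and 2, 9 and 3 in the DTR libraries. Neither passed the filter on low counts, so neither was tested. *Dhh*, the ligand made by Schwann cells, was the ligand with a measurable level, at 127, 212 and 249 normalized counts in the WT and 111, 121 and 218 in the DTR libraries. The groups overlapped, and the difference was -0.38 ± 0.35 log2 units (SE; adjusted p = 0.697, edgeR). *Dhh* was high in WT replicates 2 and 3 and DTR replicate 3, the same 3 libraries in which 8 Schwann cell markers held most, 0.113%, 0.101% and 0.0784% of the counts, against 0.0446% to 0.0615% in the other 3. None of the 8 Schwann markers was at 0 in any library, and their part in the *Dhh* values was not tested.

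**Figure D2:**
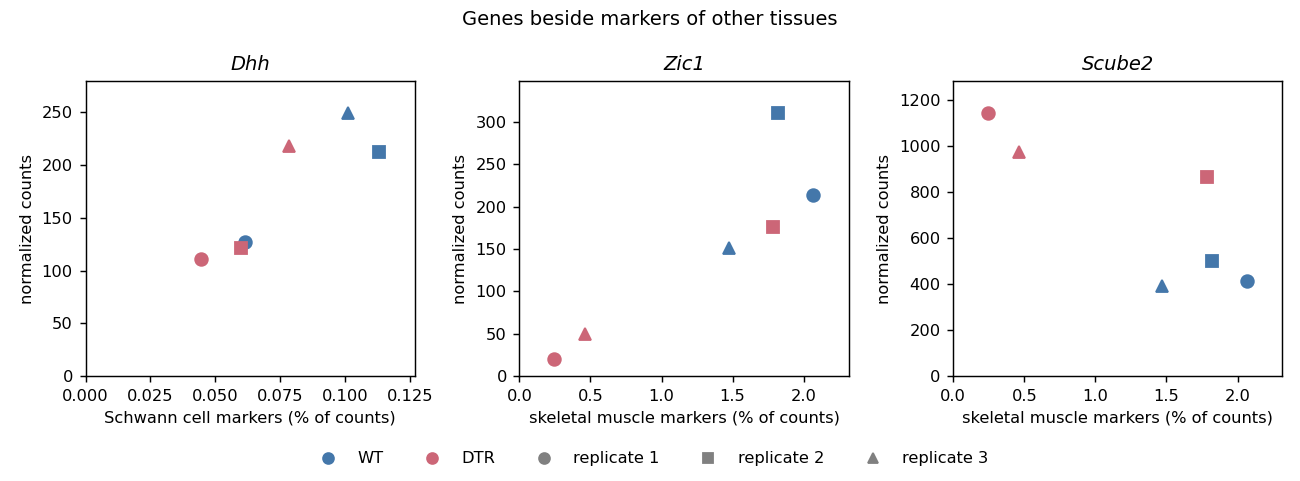
Normalized counts of *Dhh*, *Zic1* and *Scube2* (y axis, from 0) against the share of counts on Schwann cell or skeletal muscle markers (x axis, percent), with 1 point per library coloured by group. *Dhh* lies at 212 or more in the 3 libraries with a Schwann share of 0.0784% or more, and *Scube2* is highest, at 1144, in the DTR library with the lowest muscle share, 0.243%. In DTR replicate 2, with a muscle share of 1.78%, within the WT range of 1.47% to 2.07%, *Scube2* is at 864, above the WT libraries.

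The genes of ligand modification and release were fitted higher in DTR tendons, with 0 past the adjusted threshold by edgeR and 1 at an unadjusted p under 0.05 (5.52% of all tested genes were higher at that level). All 7 of the list (*Hhat*, *Disp1*, *Disp2*, *Gpc4*, *Gpc6*, *Ext1* and *Ext2*) had a log2 fold change above 0, as did 51.5% of all tested genes. Their median was 0.21, where that of all tested genes was 0.0082. *Hhat*, the acyltransferase that attaches palmitate to hedgehog ligands, had 434, 460.5 and 482 normalized counts in the WT and 850.2, 518 and 713 in the DTR libraries. All DTR libraries were above the WT libraries, and the difference was 0.60 ± 0.18 log2 units (SE; unadjusted p = 0.0123, adjusted p = 0.364, edgeR). *Disp1*, the Dispatched protein that works with SCUBE2 in ligand release, had 1018 to 1589 normalized counts in the WT and 1270 to 1453 in DTR, a difference of 0.07 ± 0.16 log2 units. *Disp2* was low and overlapped, at 0.53 ± 0.31 log2 units. Of the 7 genes, 5 had their highest library in DTR replicate 1, the library with the least muscle RNA. The same library was highest for 4 of the 9 members. Among the tested genes of the other lists below it was highest for 10 of 25 regulators, 12 of 42 cilium, 5 of 19 downstream and 0 of 5 co-receptor genes. The part of muscle RNA was not tested.

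On the receiving side, *Smo* was the highest of the members per length. It had 3048, 2943 and 3004 normalized counts in the WT and 4102, 3136 and 3369 in the DTR libraries. The groups did not overlap, but DTR replicate 2 was only 1.03 times the highest WT library, and DTR replicate 1 stood above the rest. The difference was 0.24 ± 0.11 log2 units (SE; unadjusted p = 0.0638, adjusted p = 0.473, edgeR). Without DTR replicate 1 it was 0.11, and with the muscle share as a covariate 0.04. *Ptch1* had 919, 1396 and 1154 normalized counts in the WT and 835, 1083 and 1198 in the DTR libraries. WT replicate 2 was the highest library and DTR replicate 1 the lowest, and the log2 fold change of -0.15 had a 95% interval of -0.59 to 0.29 (adjusted p = 0.783, edgeR). Without WT replicate 2 it was 0.0038, and with a sex term -0.30 (unadjusted p = 0.0483, adjusted p = 0.391, edgeR). The ratio of DTR to WT was 0.817 in the libraries with *Xist* and 0.806 in those without.

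*Hhip*, the membrane protein that sequesters ligand, varied most within the WT group among the 9 genes. It had 80.2, 49.9 and 158 normalized counts in the WT and 73.2, 129 and 129 in the DTR libraries, so that WT replicates held both the highest and the lowest library. Its log2 fold change was 0.21 with a 95% interval of -0.84 to 1.25 (adjusted p = 0.893, edgeR). Without WT replicate 2 it was -0.11, and the ratio of DTR to WT was 2.59 in the libraries with *Xist* and 0.614 in those without. Of the co-receptors, *Gas1*, *Boc* and *Cdon*, which present ligand to *Ptch1*, overlapped between the groups with log2 fold changes of 0.08, -0.15 and -0.13. *Gpc3*, a glypican that competes for ligand, had 1335, 2214 and 1476 normalized counts in the WT and 509, 1563 and 1609 in the DTR libraries, with DTR replicate 1 far below the other libraries and a difference of -0.45 ± 0.50 log2 units. *Lrp2*, with 8 raw counts in all WT and 12 in all DTR libraries, was not tested.

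Of the Gli transcription factors, only *Gli3*, which acts mainly as a repressor in the absence of ligand, had every DTR library above every WT library. It had 1535, 1461 and 1690.1 normalized counts in the WT and 1969, 1722 and 1869 in the DTR libraries. The margin between the nearest libraries was small, as DTR replicate 2 was 1.02 times WT replicate 3. The difference was 0.25 ± 0.09 log2 units (SE; unadjusted p = 0.0314, adjusted p = 0.429, edgeR), and with the muscle share as a covariate it was 0.13. The ratio of DTR to WT was 1.23 in the libraries with *Xist*, and in those without the DTR library had 1969 normalized counts against a WT mean of 1612.

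*Gli1*, an activator whose transcript reports hedgehog signalling, had 414, 642 and 464 normalized counts in the WT and 453, 345 and 823 in the DTR libraries. DTR libraries were both the highest and the lowest of the 6, and the means were 507 ± 120.0 and 541 ± 251 (SD, n = 3 each). The log2 fold change was 0.09 with a 95% interval of -0.74 to 0.93 (adjusted p = 0.944, edgeR), and it turned to -0.34 without DTR replicate 3 and to -0.0322 without WT replicate 1. *Gli2*, the main activator downstream of *Smo*, had 468, 553 and 442 normalized counts in the WT and 518, 430.5 and 686 in the DTR libraries. The groups overlapped (difference 0.16 ± 0.19 log2 units, adjusted p = 0.777, edgeR), and without DTR replicate 3 it was at -0.0377. Whether the counting used strand is not given in the sources used here. By GENCODE vM21, exons on the opposite strand overlap those of *Gli1* by 62 bases (*Arhgap9*, which had 611 to 908 counts) and 265 bases (*Gm47200*, at 0 in all libraries), and those of *Gli3* by 188 bases (*Gm6556*, with 20 to 45 counts). Exons on the opposite strand also overlap those of *Hhip* by 175 bases (*Gm27820*) and those of *Scube3* by 198 bases (*AC126937.2*). Neither of these overlapping genes is listed in the count table. Reads from all those stretches cannot be told apart without strand.

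In edgeR 0 of the 8 members other than *Scube2* had an adjusted p under 0.05, and 1 (*Gli3*) had an unadjusted p under 0.05 and was higher in DTR, beside 5.52% of all tested genes. This count moved with the processing, from 0 (with the muscle or keratinocyte share as a covariate, with library size alone as the scaling, and without WT replicate 1 or 2 or DTR replicate 1 or 3) to 3 with a sex term (*Gli3* and *Smo* higher, *Ptch1* lower), and it was 2 (*Gli3* and *Smo*) without DTR replicate 2 and with no filter on low counts. By DESeq2, 0 of these 8 had an adjusted p under 0.05, beside 2.65% of all tested genes, and by edgeR without DTR replicate 2 it was 0 beside 3.02%. Of the 8, 6 were fitted higher in DTR tendons and 2 lower (*Scube1* and *Ptch1*), with a median log2 fold change of 0.17, and 2 (*Gli3* and *Smo*) had every DTR library above every WT library, beside 8.96% of all tested genes. None of the 8 had every DTR library below every WT library, as 7.85% of all tested genes did. The readout genes *Gli1*, *Ptch1* and *Hhip* had mean levels, relative to their mean over the 6 libraries, of -0.25, -0.06 and 0.23 log2 units in WT and -0.30, -0.04 and 0.43 in the DTR libraries. In this mean WT replicate 1 and DTR replicate 1 were lowest, and WT replicate 3 and DTR replicate 3 highest, so the range of WT lay within that of DTR. The 3 genes did not move together, so opposite values cancel in the mean. In WT replicate 2 *Gli1*, *Ptch1* and *Hhip* were at 0.36, 0.37 and -0.92, and in DTR replicate 2 at -0.54, 0.0013 and 0.42.

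**Figure D3:**
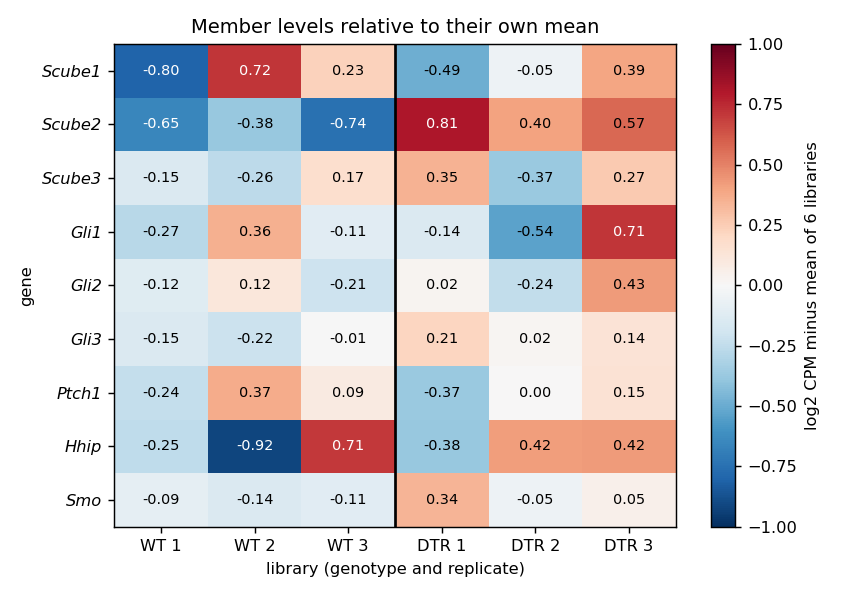
Log2 CPM of each gene minus its mean over the 6 libraries, by gene (rows) and library (columns, WT to the left of the line), with the value in each cell. *Scube2* is below 0 in the 3 WT and above 0 in the 3 DTR libraries, whereas *Gli1* is highest in DTR replicate 3 (0.71) and lowest in DTR replicate 2 (-0.54).

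Compared per length of exon (in GENCODE vM21, matched by symbol), *Smo* had 533 ± 9.43 normalized counts per kb in WT and 629 ± 89.7 in DTR tendons (SD, n = 3 each). *Gli3* was next among the members in WT, at 163 ± 12.2, followed by *Scube2* at 105 ± 14.03, *Gli1* at 101 ± 24.0, *Ptch1* at 81.5 ± 16.8 and *Gli2* at 71.0 ± 8.45 (SD, n = 3 each). Of these, *Scube2* and *Gli1*, *Gli1* and *Ptch1*, and *Ptch1* and *Gli2* differed by less than the larger of their SDs. *Scube3* (19.0 ± 3.05), *Hhip* (10.6 ± 6.14) and *Scube1* (5.28 ± 2.60) were lowest (SD, n = 3 each). In DTR tendons *Scube2*, at 239 ± 34.0 per kb, was above *Gli3*, at 193 ± 13.0 (SD, n = 3 each), though the lowest *Scube2* value, 208, was near the highest *Gli3* value, 205. Within the Scube family, the level per kb of *Scube2* was above those of *Scube3* and *Scube1* in every library, and that of *Scube3* above that of *Scube1*.

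Regulators of *Smo* and the Gli proteins were fitted close to 0 apart from *Zic1*. Of 25 genes, 18 were fitted above 0 and 7 below, and their median was 0.03 log2 units, and 0 had an unadjusted p under 0.05 (edgeR), beside 11.0% of all tested genes. *Sufu*, which holds Gli proteins in the cytoplasm, was at 0.11 (standard error 0.13), *Gpr161*, a ciliary receptor that keeps *Gli3* in its repressor form, at 0.07 (0.10) and *Kif7*, a ciliary kinesin, at 0.07 (0.17). The highest was *Evc2*, a ciliary partner of *Smo*, at 0.15 (0.11). The lowest was *Zic1*, a zinc finger protein that interacts with Gli proteins, with 213, 311 and 151 normalized counts in the WT and 20.6, 176 and 49.3 in the DTR libraries (difference -1.45 ± 0.79 log2 units, adjusted p = 0.528, edgeR). *Zic1* was low in DTR replicates 1 and 3, the libraries with muscle shares of 0.243% and 0.463%, and the part of muscle RNA was not tested.

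*Smo* acts in the primary cilium, and the 42 genes of cilium assembly and transport were at a median of 0.08 log2 units, with 28 above 0 and 14 below. Of them, 4 were higher and 1 lower at an unadjusted p under 0.05 by edgeR, a share near the 11.0% of all tested genes, and 0 passed the adjusted threshold. *Rpgrip1l*, of the transition zone at the base of the cilium, had 501, 535 and 502 normalized counts in the WT and 629, 864 and 670.0 in the DTR libraries (difference 0.49 ± 0.14 log2 units, adjusted p = 0.353, edgeR). The intraflagellar transport genes *Ift74*, *Ift122* and *Wdr19* were at 0.27 (standard error 0.09), 0.23 (0.09) and 0.21 (0.09), each with every DTR library above every WT library. Of the 42 genes, 6 had every DTR library above every WT library, beside 8.96% of all tested genes. Another 2 had every DTR library below, beside 7.85%. *Bbs2*, of the complex that moves membrane cargo in cilia, had 621, 706 and 635 normalized counts in the WT and 504, 494 and 590 in the DTR libraries and was the lowest of the list, at -0.31 (standard error 0.12, adjusted p = 0.446, edgeR).

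**Figure D4:**
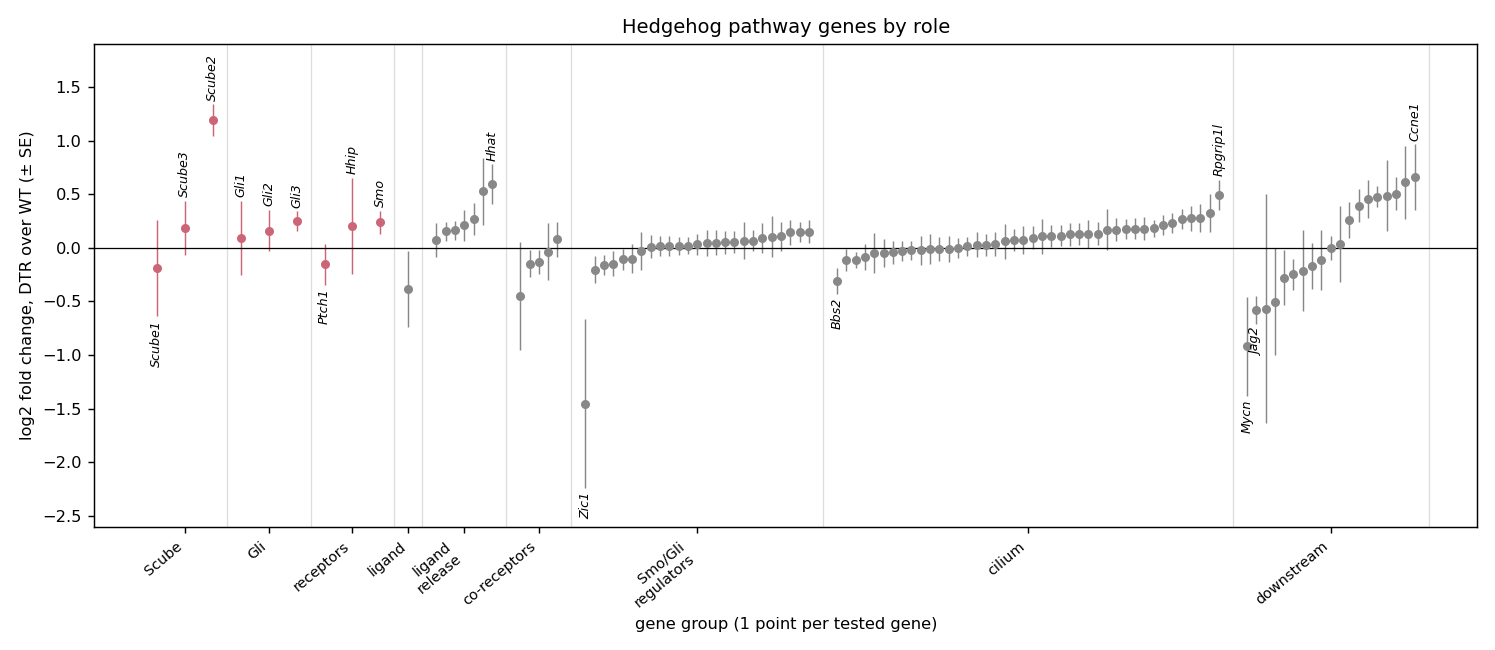
Log2 fold change of DTR over WT with its standard error (bars) for the 9 members (red) and 99 other tested pathway genes (grey), grouped by role and sorted within each group. *Scube2* stands at 1.19, the other members lie between -0.19 and 0.25, and the cilium genes lie between -0.31 and 0.49.

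Genes known as hedgehog responsive in other tissues were fitted in both directions. Of 19 tested, 10 were fitted above 0 and 9 below, with a median log2 fold change of 0.00054. At an unadjusted p under 0.05 by edgeR, 4 were higher and 1 lower, where 11.0% of all tested genes were at that level in either direction and 5.52% higher, and 0 passed the adjusted threshold. *Cdk6*, a G1 kinase, had 1968, 1708 and 2039 normalized counts in the WT and 2641, 2485 and 2826 in the DTR libraries (difference 0.48 ± 0.10 log2 units, adjusted p = 0.274, edgeR). *Osr2*, a transcription factor of limb connective tissue, was at 0.50 (standard error 0.15), with every DTR library above every WT library. *Ccnd2*, a G1 cyclin, at 0.45 (0.18), and *Sfrp1*, a secreted Wnt antagonist, at 0.39 (0.15), overlapped between the groups.

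*Jag2*, a Notch ligand, was the downstream gene with the lower level at an unadjusted p under 0.05, with 983, 1019 and 796 normalized counts in the WT and 581, 696 and 592 in the DTR libraries (difference -0.58 ± 0.13 log2 units, adjusted p = 0.281, edgeR). *Foxf1*, a forkhead gene that responds to hedgehog in gut and lung mesenchyme, had 137, 149.7 and 109 normalized counts in the WT and 206, 103 and 246 in the DTR libraries, with DTR replicate 2 again the lowest library as for *Gli1*. The highest log2 fold change of the list was that of the G1/S cyclin *Ccne1* at 0.66 (standard error 0.30), and the lowest that of *Mycn* at -0.92 (0.46), which had at most 30.1 normalized counts. *Foxl1*, with 10 raw counts in all WT and 20 in all DTR libraries, was not tested.

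The genes whose profile over the 6 libraries lay nearest to that of *Scube2* were *AW551984*, *Slit2*, *Uox*, *Col5a3* and *Gm44275*, with a root mean square difference of 0.11 to 0.21 log2 units in centred log2 CPM, where the median over 14408 genes was 0.63. *Slit2*, a secreted guidance ligand, had 551, 530.1 and 569.6 normalized counts in the WT and 1376, 932 and 1207 in the DTR libraries. *Col5a3*, a type V collagen chain, had 12623, 16795 and 11618 in the WT and 32313, 19566 and 23063 in the DTR libraries. Both had their highest level in DTR replicate 1 and their lowest DTR level in replicate 2, as did *Scube2*. This order follows from their choice by likeness over the same libraries, and nothing is read from it. Among the 7 other members that averaged 50 normalized counts or more, the nearest to *Scube2* was *Smo* (0.49), at rank 1109 of 14408.

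Nearest to *Gli1* were *1700093K21Rik*, *Igsf11*, *Cpne7*, *Egfl8* and *Gm39323*, with differences of 0.07 to 0.15 log2 units. *Igsf11*, an adhesion protein, had 70.0, 105 and 79.0 normalized counts in the WT and 69.0, 48.8 and 138 in the DTR libraries. Its highest level was in DTR replicate 3 and its lowest in DTR replicate 2, the extremes of *Gli1*, which again follows from the choice by likeness. *Gli2* was the member nearest to *Gli1*, at 0.22 log2 units and rank 34 of 14408, followed by *Ptch1* at 0.34 and rank 906. *Hhip*, at 0.75, was at rank 13263 and *Scube2*, at 0.69, at rank 13084. These distances rest on 6 libraries that share their depth and tissue make-up, and they are given as a description.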

How the data were processed

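Bulk RNA-seq libraries of 3 DTR and 3 WT tendons were made from 200 ng total RNA with a stranded mRNA kit, per the paper's methods, and the labels also name a SMARTER kit. The authors demultiplexed the single-end reads (bcl2fastq 2.19.0), cleaned them (FastP 0.20.0), counted them on genes (subread 1.6.4, featureCounts) and deposited raw counts per gene (42744138 to 48854310 per library). A second deposited table holds a signal, the same counts divided by 1 size factor per library (0.973 to 1.06, DESeq2 1.22.1 per the submitters' processing notes). The aligner, build and annotation are not given in the sources used here.

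The count table was tested with edgeR 4.0.16 under R 4.3.3 (filterByExpr, TMM, robust quasi-likelihood fit with genotype as the single term), Benjamini-Hochberg adjustment over 17496 genes and a threshold of 0.05. The SE was taken as the size of the estimate over the root of its F statistic. DESeq2 1.42.0 and limma 3.58.1 (log2 of deposited values + 1) were alternatives, with other normalizations and filters, a replicate block, covariates for muscle and keratinocyte markers, a term for sex and each library left out. The scripts were tested on simulated data.

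Libraries of a group gave a chi-square of 36.6 to 190 per degree of freedom, so none was taken as a duplicate. The 6 libraries are separate tendons, and their number limits the precision. The members, lists and tests were chosen with earlier results of these data known. Named genes were the members, ligands and co-receptors, in the other lists each gene with an unadjusted p under 0.05 and the extremes, and the 5 nearest profiles (mean of at least 50 normalized counts). *Sufu*, *Kif7*, *Gpr161*, *Disp2* and *Foxf1* were added after their values were seen, for their role, and a gene of the co-receptor list is not reported here. Gene lengths came from GENCODE vM21, whose symbols matched 92.8% of the listed genes and all 9 members.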

Additional observations from a re-analysis of the deposited data

How the results depend on the processing

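*Scube2* stayed higher in DTR in all 16 alternatives (0.98 to 1.30 log2 units), and the one that moved it by more than the spread between replicates was the muscle covariate (0.98). At an adjusted p under 0.05 over all genes, edgeR called 0 genes (1918 at an unadjusted p under 0.05), DESeq2 466 (2.65%), edgeR with no filter on low counts 83, the replicate block 1 (*Plin4*), and leaving out 1 library 0 to 544. Without DTR replicate 2 it was 544 (3.02%). Of the 8 members other than *Scube2*, 0 were called in any alternative. The count over all 9 was 0 to 1 in the alternatives, with 1 library left out too, and nothing is read from the 1, which is *Scube2*, picked for its difference. The fitted direction turned for *Scube3* (-0.29), *Gli1* (-0.31) and *Gli2* (-0.0508) with the muscle covariate, for *Hhip* (-0.0202) with the keratinocyte covariate and for *Gli1* (-0.0452) with a sex term. With 1 library left out, *Gli1* was at -0.34 to 0.33, *Gli2* at -0.0377 to 0.31, *Scube1* at -0.52 to 0.20, *Ptch1* at -0.30 to 0.0038 and *Hhip* at -0.11 to 0.76. These directions turned without DTR replicate 3 (*Gli1*, *Gli2*), WT replicate 1 (*Gli1*, -0.0322), WT replicate 2 (*Scube1*, *Ptch1*, *Hhip*) or DTR replicate 1 (*Scube1*, 0.0039), and the cause was not tested. *Gli3* and *Smo* kept their direction in all 16 alternatives (adjusted p 0.184 to 0.883 and 0.184 to 0.956). With a replicate block no member was called, and same-numbered libraries did not deviate together (correlations of -0.19, -0.15 and -0.68). No library correlated best with its own number. The replicate numbers thus gave no sign of pairing, but correlations within groups of 3 cannot exclude it. No result met the criteria for a closer look, since groups of 3 are too small for the test of single libraries.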
